A study of Mus musculus with 4 samples.

Results

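The genes described here build and load the major histocompatibility complex class II (MHC II) molecule. They are H2-Aa, H2-Ab1, H2-Eb1, Cd74, H2-DMa, H2-DMb1, H2-DMb2, H2-Oa, H2-Ob and Ciita. They were taken as a list by function, and all 10 were among the 27998 genes of the deposited count table. The cells were CD11b+ splenocytes of C57BL/6 mice aged 8 to 12 weeks. The steady-state mice received no GM-CSF, and the GM-CSF-treated mice received 3 once-daily subcutaneous injections of 10 µg GM-CSF, a growth factor for myeloid cells, with spleens taken 24 h after the last. Both groups were sorted for CD11b, an integrin of myeloid cells, which some B cells and NK cells also carry, and neither carried a transgene or deletion. CITE-seq was used, in which RNA and antibody tags are counted in the same cell as unique molecular identifiers (UMIs). The 5 tags bound MHC II, CD301b, CD115, Ly6C and CD11c. The number of mice pooled into each library was not given in the sources used here.

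MHC II presents peptides from ingested proteins to CD4+ T cells. H2-Aa and H2-Ab1 encode the α and β chains of the I-A molecule, and H2-Eb1 encodes the β chain of I-E. C57BL/6 mice make no I-E α chain, so H2-Eb1 RNA in them is not matched by a complete I-E molecule at the cell surface. These 3 genes are called the classical chains below. Cd74 encodes the invariant chain, which fills the peptide groove and guides the new molecule to endosomes. H2-DM, built from H2-DMa and an H2-DMb chain, exchanges the remnant of the invariant chain for peptide. H2-O, built from H2-Oa and H2-Ob, restrains H2-DM and is known from B cells and thymus. Ciita encodes the transactivator that turns these genes on without touching DNA itself. Dendritic cells (DCs) and B cells hold MHC II constantly, whereas blood monocytes hold little.

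In the GRCm38 (mm10) assembly, 8 of the genes lie in the MHC region of chromosome 17, between 34092340 (the start of H2-Oa) and 34316674 (the end of H2-Eb1). Ciita lies on the plus strand of chromosome 16 (10480059 to 10528418), and Cd74 lies outside the MHC too. H2-Aa is the gene of the minus strand among the 8, at 34282744 to 34287823. Ciita acts through proteins bound to the X and Y boxes, short promoter elements held by RFX and NF-Y. RefSeq promoter sequences of GRCm38.p6, each from 250 bases before to 50 bases after a start site, were read for 7 of the 10 genes. Promoters on the chromosome that carries Cd74 were left out of the search. H2-Ab1 and Ciita were not in the promoter table. The stretches below are shown because 6 of the 7 genes held the same letters at like spacing. H2-DMa, without them, lay nearer to the classical chains than H2-DMb1 across cell types, but not across finer clusters (Pearson r 0.765 against 0.817). Whether holding these letters bears on the level of a gene was not tested. Capitals mark AAC and TGATTGG, letters that fall in the X and Y boxes and that were chosen after these promoters had been read. TGATTGG holds the shorter ATTGG, the reverse of the CCAAT core.

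H2-Aa (chr17:34287863-34287906, minus strand): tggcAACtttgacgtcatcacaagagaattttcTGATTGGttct
H2-Eb1 (chr17:34305774-34305816, plus strand): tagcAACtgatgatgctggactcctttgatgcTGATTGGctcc
H2-DMb1 (chr17:34153095-34153138, plus strand): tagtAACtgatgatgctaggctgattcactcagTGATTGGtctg
H2-DMb2 (chr17:34145124-34145167, plus strand): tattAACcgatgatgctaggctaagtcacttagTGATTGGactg
H2-Oa (chr17:34092301-34092344, plus strand): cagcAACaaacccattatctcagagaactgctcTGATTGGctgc
H2-Ob (chr17:34238816-34238856, plus strand): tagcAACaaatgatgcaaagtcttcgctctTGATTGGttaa

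In these 6 promoters TGATTGG began 45 to 92 bases before the start site and stood 23 to 26 bases after AAC. H2-DMb1 and H2-DMb2, which are paralogs, carried the same spacing of 26 bases, as did H2-Aa and H2-Oa. AAC followed within 20 to 30 bases by TGATTGG, on either strand, was found in 0.910% of the 32851 promoters searched. These did not include promoters on the chromosome of Cd74. TGATTGG alone was in 7.23% of promoters and ATTGG in 33.8%. Both promoters listed for H2-DMa, which lie inside the gene span that starts at 34119541, held ATTGG without the longer pattern.

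The steady-state library held 4827 cells with 22358903 UMIs and the GM-CSF-treated library 6804 cells with 35007567 UMIs. Median UMIs per cell were 3371 and 4916, and 8 cell barcodes occurred in both libraries. Each condition was 1 library, so condition and library cannot be told apart, and no difference below has a replicate check. Levels are given as CPM, the UMIs of a gene per 1000000 UMIs of the cell group. Reads came from the 3′ end, so a UMI counts a molecule and is not divided by gene length. All intervals are exact 95% intervals that cover counting error only. A difference of at least 2-fold, among genes with at least 50 UMIs over both groups, is used as a description of size. Cell types and clusters are those deposited by the study, which were drawn from RNA of all genes and may have used the genes described here. MoMacDC_c1, c2, c4 and c5 are its classes of monocytes, macrophages and DCs. 17 finer clusters (0 to 16) cover these and Progenitor DCs, 2135 cells at steady state and 3940 after GM-CSF, and are called the monocyte-DC bundle here. The label cDC2-A went against the markers: NK cell genes reached 16048 and 16181 CPM there, and genes of conventional DCs 25.6 and 15.9 CPM. The 43 steady-state MoMacDC_c4 cells also carried NK cell genes (10035 CPM against 1.57 CPM in the 595 cells of the treated library). Other labels held their markers, such as 6965 and 6414 CPM of B cell genes in B cells. Genes of conventional and progenitor DCs were on the same list, so they do not tell Progenitor DCs from conventional DCs.

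At steady state the classical chains were highest in Progenitor DCs and MoMacDC_c2 cells, and lowest in neutrophils. H2-Aa stood at 5609 CPM (interval 5493 to 5726) in MoMacDC_c2 and at 5536 CPM in Progenitor DCs, levels whose intervals overlapped. Activated DCs followed at 2551 CPM in 8 cells, then B cells at 2181 CPM, whose intervals also overlapped. Macrophages held 841 CPM, MoMacDC_c4 636 CPM, MoMacDC_c1 425 CPM and MoMacDC_c5 126 CPM. H2-Aa stood at 55.9 CPM in the cDC2-A group with NK cell genes, 20.95 CPM in granulocytes, 17.9 CPM in T cells and 9.16 CPM in neutrophils. Neutrophils are not known to express MHC II at rest and serve here as the background, including free RNA. Of steady-state neutrophils, 5.48% (2.40 to 10.5%) had an H2-Aa UMI at a median of 6461.5 UMIs per cell. MoMacDC_c1 cells, at a median of 7322 UMIs, had one in 24.6% (22.2 to 27.0%), and every Progenitor DC had at least 1.

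After GM-CSF, H2-Aa stood at 6078 CPM in MoMacDC_c2, 5560 CPM in Activated DCs (20 cells) and 4549 CPM in Progenitor DCs. B cells held 3745 CPM, MoMacDC_c1 3568 CPM and MoMacDC_c4 3428 CPM, of which MoMacDC_c1 and B cells had overlapping intervals. MoMacDC_c5 followed with 1095 CPM and macrophages with 847 CPM. Background was higher than at steady state too. H2-Aa in neutrophils was 34.2 CPM, and 12.2% (10.1 to 14.5%) of them had a UMI. The 3 classical chains were at least 2-fold higher in neutrophils of the treated library, beside 3.62% of genes higher and 2.48% lower. In granulocytes these chains and Cd74 were, with H2-Aa at 20.95 and 71.7 CPM, beside 7.29% of genes higher and 3.2% lower. MoMacDC_c1 cells with a UMI made up 92.1%, against the 24.6% at steady state. With every cell thinned to 1000 UMIs, these shares were 83.8% and 11.9%, and the shares of neutrophils were 2.27% and 1.37%.

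H2-Ab1 and H2-Eb1 followed H2-Aa closely. Over 23 groups of at least 20 cells (cell types split by library), log2(CPM + 10) of the summed classical chains had a Pearson r of 0.987 with Cd74, 0.949 with Ciita and 0.949 with H2-DMa. The r was 0.923 with H2-DMb1, 0.846 with H2-DMb2, 0.799 with H2-Oa and 0.717 with H2-Ob. Groups of a library share its depth and free RNA, so these values are a description. Cd74, the most abundant of the 10, ranged from 28.4 CPM in steady-state neutrophils to 11566 CPM in MoMacDC_c2 cells of the treated library. Ciita reached at most 288 CPM, in steady-state Progenitor DCs.

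**Figure D1:**
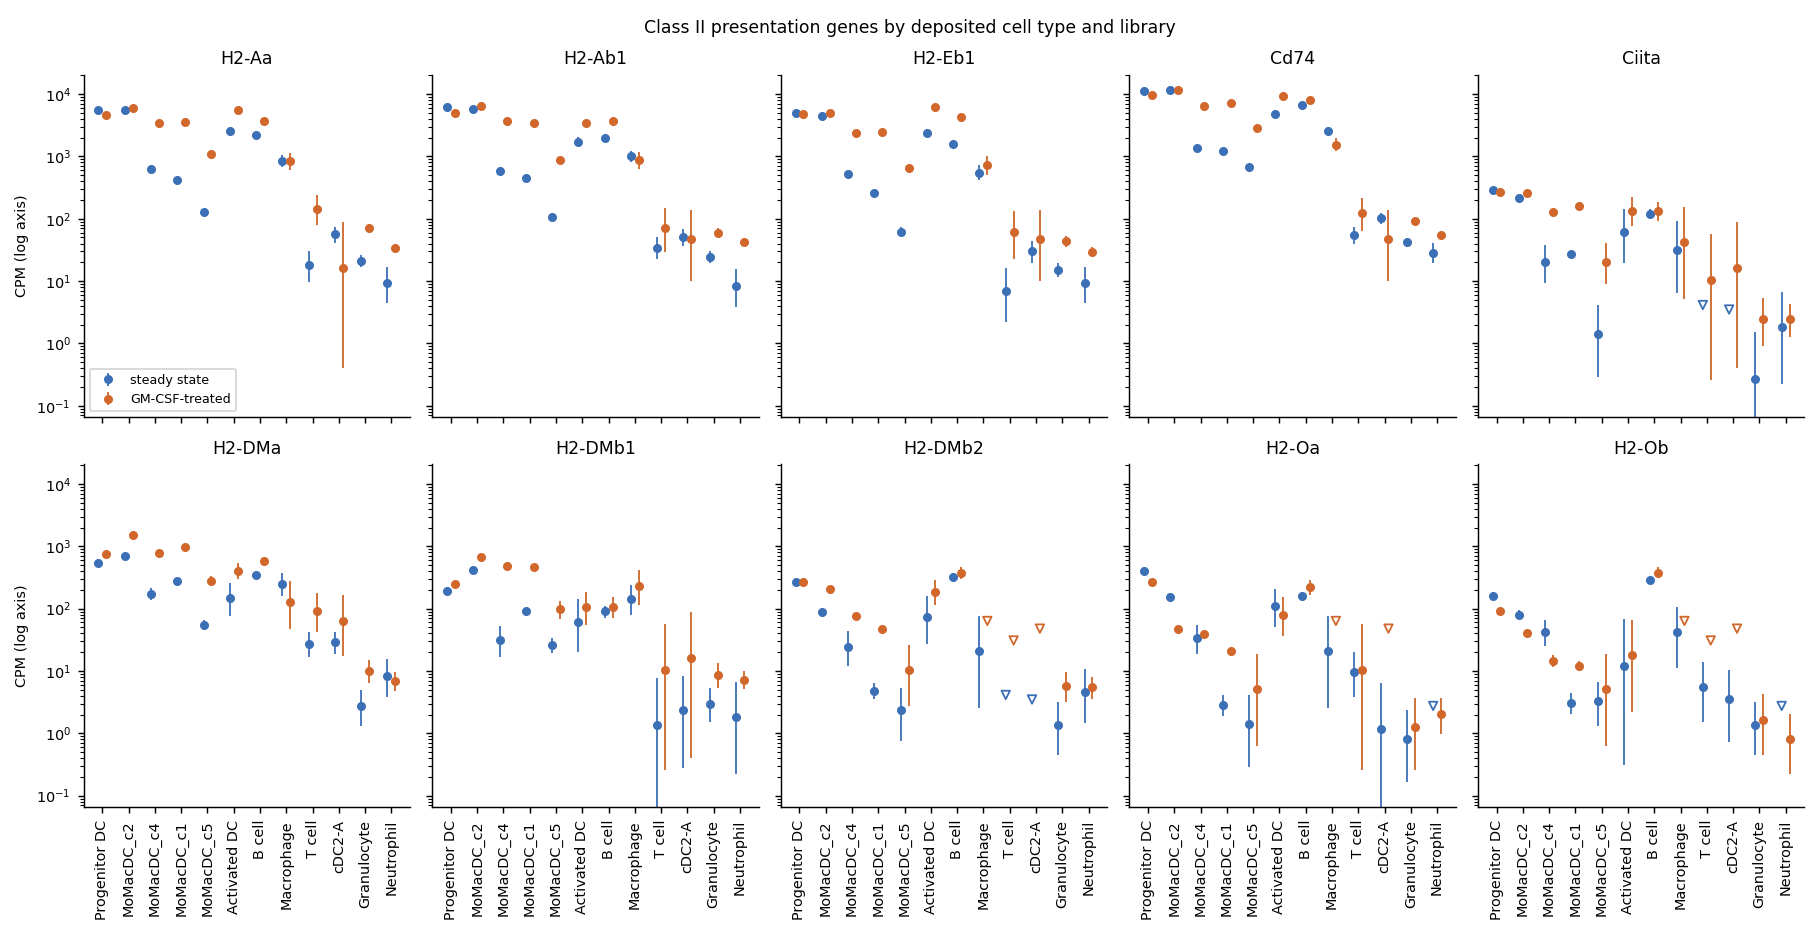
Each panel plots 1 gene in CPM (log axis) by deposited cell type, blue for the steady-state and orange for the GM-CSF-treated library; bars are exact 95% Poisson intervals of the UMIs and open triangles mark the level of 3 UMIs where none was counted. H2-Aa of MoMacDC_c1 sits at 425 and 3568 CPM, that of Progenitor DCs at 5536 and 4549 CPM, and H2-Ob is highest in B cells (284 and 378 CPM).

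Over all cells, 8 of the 10 genes were at least 2-fold higher in the GM-CSF-treated library, where 7.74% of 11476 genes were, and none was 2-fold lower, where 10.1% were. H2-Aa went from 1017 to 3518 CPM, H2-Ab1 from 1059 to 3634 CPM and H2-Eb1 from 797 to 2777 CPM. Cd74 went from 2338 to 6904 CPM and Ciita from 48.5 to 154 CPM. H2-DMb1 had the largest ratio, 4.52 (4.32 to 4.75), from 88.3 to 400 CPM. H2-DMa stood at 224 and 845 CPM, and H2-DMb2 at 37.4 and 108 CPM. The H2-O genes stood near their steady-state level, with H2-Oa at 42.5 and 49.3 CPM and H2-Ob at 28.9 and 27.2 CPM. The summed classical chains were 3.46-fold higher (3.43 to 3.48), H2-DM 3.87-fold and H2-O 1.07-fold (1.01 to 1.14). Within the monocyte-DC bundle the same 8 genes were at least 2-fold higher, beside 8.66% of genes higher and 9.46% lower.

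The libraries also differed in which cells were present. MoMacDC_c2 cells made up 3.67% of steady-state and 21.6% of GM-CSF-treated cells, and gave 39.1% and 46.4% of the classical chain UMIs. Progenitor DCs gave 32.1% and 12.2%, MoMacDC_c1 16.9% and 23.6%, and B cells 7.88% and 0.841%. MoMacDC_c4 went from 1.22% to 15.8%. With the levels of each cell type taken from the treated library and the UMI shares from the steady-state one, the classical chains came to 7077 CPM, and with the reverse to 6253 CPM, against measured levels of 2874 and 9929 CPM. For H2-DM the same exchange gave 997 and 548 CPM, between 350 and 1353 CPM measured. For H2-O it gave 67.0 and 128 CPM, beside 71.4 and 76.4 CPM. The steady-state levels at the treated makeup thus came to more H2-O than was measured in either library. In that exchange MoMacDC_c4 weighed 16.4% of UMIs, with levels from 43 steady-state cells that carried NK cell genes, which limits these values. B cells held 24.3% of H2-O UMIs at steady state and 5.60% after GM-CSF, while Progenitor DCs held 43.5% and 40.3%.

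The difference within cell types was not alike. In MoMacDC_c1, whose classical monocyte genes stood at 2473 and 753 CPM, all 10 genes were at least 2-fold higher in the treated library, where 5.48% of genes were higher and 7.26% lower. Its H2-Aa ratio was 8.39 (8.12 to 8.68) and its H2-Eb1 ratio 9.68, with H2-Eb1 at 258 and 2495 CPM. H2-DMa had the smallest ratio of the 10 there, 3.54, at 275 and 972 CPM. The finer clusters within MoMacDC_c1 differed in size. At steady state and after GM-CSF, cluster 1 gave 41 and 512 of the cells, cluster 2 gave 304 and 290, and cluster 5 gave 441 and 140. Cluster 6 gave 297 and 104. Over all cells of each cluster, mean H2-Aa UMIs per cell were 21.9 and 30.1 in cluster 1 and 8.67 and 22.1 in cluster 2. They were 0.699 and 15.1 in cluster 5, and 0.0774 and 3.42 in cluster 6. The part of this makeup in the ratios was not tested. At steady state 177 of the 1277 MoMacDC_c1 cells had a UMI of a B cell gene (from a short list with Cd79a, Cd79b and Ms4a1 among its genes) and held 26.0% of the classical chain UMIs. Without such cells in either library the ratio of the classical chains was 9.47 in place of 8.32. In MoMacDC_c5, marked by genes of non-classical monocytes (3401 and 1622 CPM), H2-Aa stood at 126 and 1095 CPM and H2-DMa at 55.3 and 279 CPM. Few cells carried these levels: the 10 highest MoMacDC_c5 cells held 59.6% of the classical chain UMIs at steady state and 53.0% after GM-CSF, and 75.1% and 42.4% of the cells had none. 6 members passed 50 UMIs in MoMacDC_c5 and lay at least 2-fold higher, beside 2.43% of genes higher and 6.73% lower. The other 4 had fewer UMIs: Ciita 1.395 and 20.5 CPM, H2-DMb2 2.33 and 10.2 CPM, H2-Oa 1.395 and 5.12 CPM, and H2-Ob 3.26 and 5.12 CPM.

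MoMacDC_c2 cells held high classical chains in both libraries. H2-Aa was 5609 and 6078 CPM, H2-Ab1 5721 and 6349 CPM, H2-Eb1 4413 and 4889 CPM, and Cd74 11460 and 11566 CPM. Their H2-DM genes differed more: H2-DMa was 708 and 1509 CPM and H2-DMb2 87.1 and 210 CPM, the 2 members at least 2-fold higher beside 6.02% of genes. H2-Oa was lower, 155 against 47.45 CPM, a ratio of 0.305 (0.261 to 0.358) beside 6.81% of genes at least 2-fold lower. Most MoMacDC_c2 cells with a bundle cluster lay in clusters 3, 9 and 10 at steady state and in clusters 0, 3 and 10 after GM-CSF. Genes of conventional and progenitor DCs were 267 and 73.6 CPM in MoMacDC_c2, and their part in these differences was not tested. Without the cells that had a B cell gene UMI, H2-Oa was 143 and 46.8 CPM, and the ratio of H2-Ob was 0.453 in place of 0.508, which put it past 2-fold lower.

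In Progenitor DCs none of the 10 genes was 2-fold apart between the libraries, where 5.81% of genes were at least 2-fold higher and 8.06% lower. H2-Aa was 5536 and 4549 CPM, H2-Ab1 6116 and 4981 CPM, and H2-Eb1 5018 and 4716 CPM. H2-DMa was higher in the treated library, at 544 and 752.5 CPM, and H2-DMb2 nearly level at 266 and 272 CPM. H2-Oa (401 and 269 CPM) and H2-Ob (160 and 92.6 CPM) were lower, with ratios of 0.671 (0.599 to 0.752) and 0.578 (0.480 to 0.697). The B cell markers stood at 38.0 and 10.4 CPM in these Progenitor DCs. Without the cells that had a B cell gene UMI, the ratios were 0.677 and 0.556. Granulocyte genes stood at 9238 and 2102 CPM in them, and the part of these was not tested. The finer clusters within Progenitor DCs differed in size between the libraries. At steady state and after GM-CSF, cluster 9 gave 100 and 225 of the cells, cluster 12 gave 19 and 151, and cluster 14 gave 29 and 7. The part of this makeup in the ratios was not tested.

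In B cells H2-Aa was 2181 and 3745 CPM and H2-Ab1 1992 and 3661 CPM. H2-Eb1 was the member at least 2-fold higher in B cells (1606 and 4235 CPM, a ratio of 2.64), beside 1.41% of genes higher and 13.8% lower. Cd74 was 6555 and 7923 CPM, Ciita 120 and 131 CPM, and H2-DMb2 327.5 and 374.5 CPM. Granulocyte genes in B cells stood at 3371 and 801 CPM. MoMacDC_c4 compared unlike cells, given the NK cell genes of its 43 steady-state cells. There, 8 members were at least 2-fold higher and H2-Ob was lower (42.3 and 14.6 CPM), beside 12.7% of genes higher and 12% lower. Of the 43 cells, 8 had a B cell gene UMI and held 72.5% of the classical chain UMIs. Without such cells the classical chains of MoMacDC_c4 stood at 668 and 9578 CPM and H2-Ob at 9.32 and 15.1 CPM, on 3 and 84 UMIs.

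The CD115hi cells were divided by the study with tags, and the deposited labels of this division were used. P-I cells are Ly6C+, known as classical monocytes, and were not chosen by the MHC II tag. P-II cells are Ly6C- MHC II-, P-III cells are Ly6C- MHC II+ CD301b-, and P-IV cells are CD301b+. The MHC II RNA of P-II, P-III and P-IV is therefore not independent of how they were chosen. P-I held 139 and 187 cells, P-III 12 and 126, P-IV 7 and 313, and P-II 8 in each library.

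In P-I cells H2-Aa stood at 585 CPM (540 to 632) at steady state and 2771 CPM (2684 to 2859) after GM-CSF. H2-Ab1 was 666 and 2596 CPM, H2-Eb1 336 and 1736 CPM, and Cd74 1721 and 5594 CPM. Ciita was 33.0 and 127 CPM, a ratio of 3.85 (2.68 to 5.68). Among the H2-DM genes, H2-DMa was 279 and 774 CPM, H2-DMb1 126 and 405 CPM, and H2-DMb2 4.58 and 45.2 CPM. These 8 genes were at least 2-fold higher in the treated library, beside 4.99% of 5774 genes higher and 7.12% lower. The H2-O genes had under 50 UMIs, with H2-Oa at 7.32 and 15.8 CPM and H2-Ob at 1.83 and 3.59 CPM. The median log2 ratio of all genes in P-I was -0.10.

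The spread over P-I cells differed between the libraries. At steady state the median P-I cell had 0 H2-Aa UMIs and the highest 77, and 35.3% (27.3 to 43.8%) had at least 1. After GM-CSF the median was 15, the highest 92, and 95.2% (91.1 to 97.8%) had at least 1, at median depths of 7264 and 7232 UMIs. The 10 cells with the most classical chain UMIs held 65.3% of them at steady state and 18.5% after GM-CSF. Of the steady-state P-I cells, 20 had a UMI of a B cell gene, and these held 52.8% of the classical chain UMIs. In the treated library 8 P-I cells did, holding 6.38%. Without such cells the classical chains of P-I stood at 922 and 6996 CPM, a ratio of 7.59 (7.06 to 8.16) in place of 4.48 (4.25 to 4.71). H2-Aa then stood at 359 and 2748 CPM, and H2-DMa at 262 and 769 CPM. The 6 B cell markers, summed, stood at 24.7 and 5.74 CPM in P-I, against 6965 CPM in steady-state B cells, and their part in the levels of P-I was not tested beyond leaving out these cells.

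With the 8 treated P-II cells set aside, the classical chains of the treated subsets were lowest in P-I and highest in P-IV. In the order P-I, then P-III, then P-IV, H2-Aa was 2771, 4762 and 5589 CPM, H2-Ab1 2596, 4550 and 6029 CPM, and H2-Eb1 1736, 3267 and 4406 CPM. Cd74 was 5594, 9043 and 10628 CPM, and Ciita 127, 180 and 238 CPM. The classical chains were 1.77-fold higher in P-III than in P-I (1.72 to 1.82), and 1.27-fold higher in P-IV than in P-III (1.24 to 1.30). Most of the H2-DM step lay between P-I and P-III. H2-DMa was 774, 1372 and 1470 CPM and H2-DMb1 405, 692 and 695 CPM, so that P-III and P-IV had overlapping intervals for both genes. H2-DMb2 went on to be higher, at 45.2, 92.0 and 191 CPM.

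From P-I to P-III, H2-DMb2 was the member at least 2-fold higher, beside 1.11% of 5233 genes higher and 2.71% lower, and H2-Oa and H2-Ob had under 50 UMIs (15.8 against 9.47 CPM and 3.59 against 24.3 CPM). From P-III to P-IV, H2-DMb2 and H2-Oa (9.47 and 31.6 CPM) were at least 2-fold higher, beside 1.91% of genes higher and 1.01% lower. The 8 P-II cells of the treated library held H2-Aa at 1223 CPM (847 to 1709), from 34 UMIs. The steady-state P-III and P-IV groups held H2-Aa at 2240 and 3431 CPM, and non-classical monocyte genes at 3126 and 2398 CPM, against 166 and 49.8 CPM in the treated library.

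**Figure D2:**
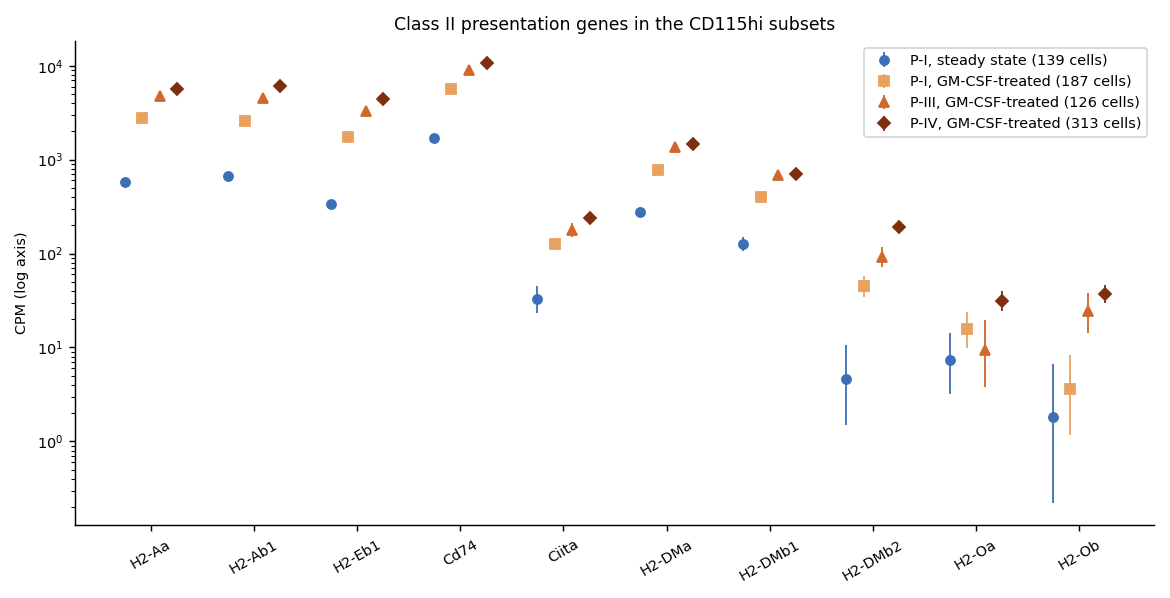
CPM (log axis) of the 10 genes in steady-state P-I cells and in 3 CD115hi subsets (P-I, P-III, P-IV) of the GM-CSF-treated library; bars are exact 95% Poisson intervals of the UMIs. H2-Aa sits at 585, 2771, 4762 and 5589 CPM in that order, and H2-DMb1 at 692 and 695 CPM in P-III and P-IV.

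The finer clusters separated H2-DM from the classical chains in steady-state monocytes. Cluster 6 at steady state (297 cells, all MoMacDC_c1) held H2-Aa at 10.5 CPM, near its level in neutrophils (9.16 CPM), yet H2-DMa at 240 CPM. Cluster 5 (442 cells) held H2-Aa at 90.7 CPM and H2-DMa at 255 CPM. In neutrophils H2-DMa was 8.25 CPM. Clusters 6 and 5 carried classical monocyte genes (3593 and 2409 CPM), which stood higher in the 29 cells of cluster 13 (5017 CPM). In cluster 4 (460 cells), with 3488 CPM of non-classical monocyte genes, H2-Aa was 118 CPM and H2-DMa 57.8 CPM.

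The balance between both sets of genes spanned a wide range. There were 0.119 classical chain UMIs per H2-DM UMI (0.0931 to 0.151) in steady-state cluster 6 and 0.679 (0.617 to 0.746) in cluster 5. The ratio was 3.17 in cluster 4 and 6.20 in cluster 2. It reached 12.9 in cluster 3 and 15.7 in cluster 9, the largest cluster of Progenitor DCs. After GM-CSF the same clusters lay closer together, at 2.86 in cluster 6, 4.62 in cluster 5, 6.32 in cluster 4, 6.62 in cluster 2, 7.59 in cluster 3 and 10.7 in cluster 9.

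H2-Aa in cluster 6 was 427 CPM after GM-CSF, and 2113 CPM in cluster 5, while H2-DMa was 283 and 783 CPM. The highest classical chain levels after GM-CSF were in clusters 3 (18400 CPM) and 0 (17779 CPM), which were mostly MoMacDC_c2. Those clusters also led in H2-DM, with 2424 and 2534 CPM. At steady state cluster 3 held as much of the classical chains (18584 CPM) with 1436 CPM of H2-DM.

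**Figure D3:**
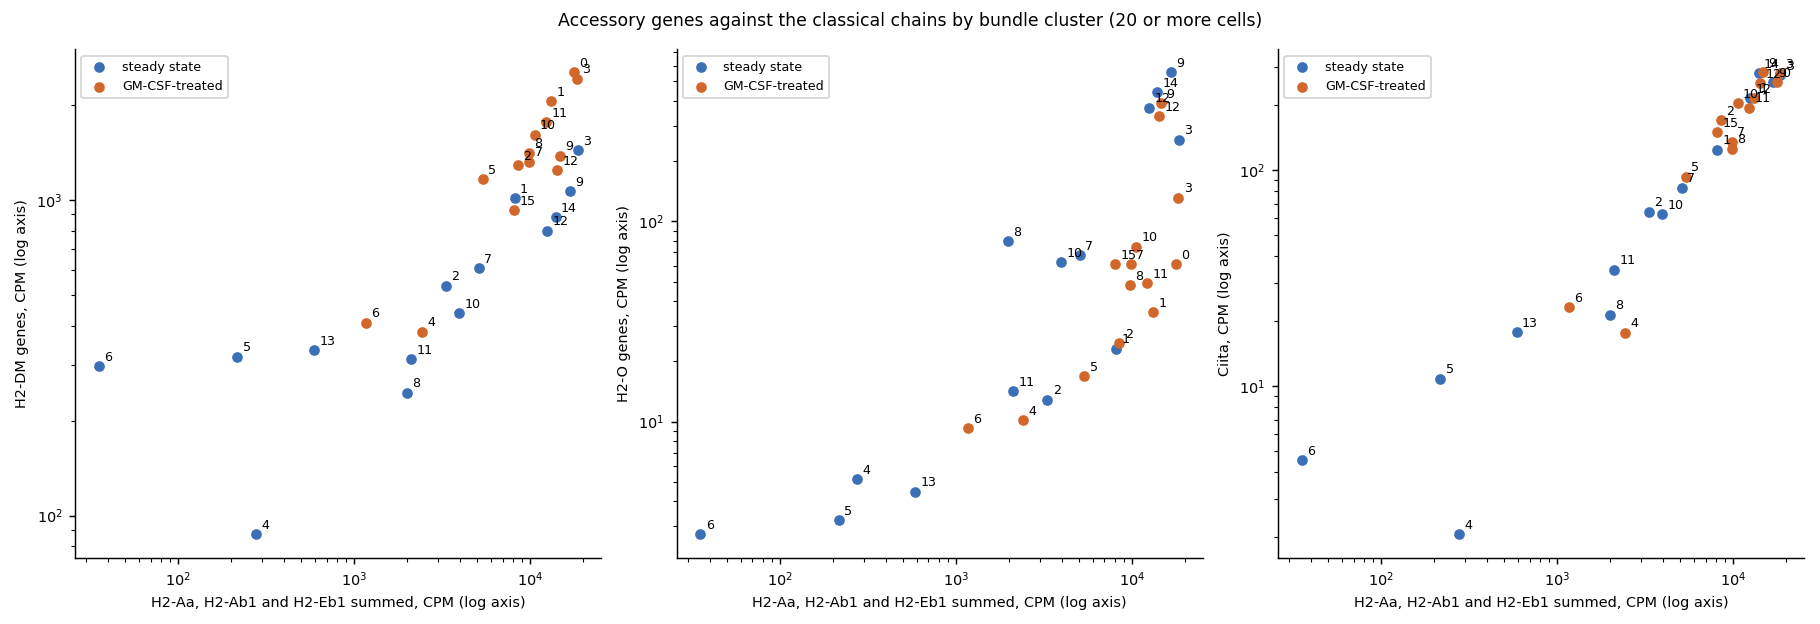
Each point is a bundle cluster of at least 20 cells in 1 library (numbers are cluster names, blue steady state, orange GM-CSF-treated), with the summed classical chains on the x axis and H2-DM, H2-O or Ciita on the y axis, in CPM on log axes. Steady-state clusters 6 and 5 lie at 298 and 319 CPM of H2-DM with 35.5 and 216 CPM of classical chains, and clusters 9, 12 and 14 lie apart in H2-O.

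Ciita went with the classical chains more evenly. In the treated bundle there were 15.6 Ciita UMIs per 1000 classical chain UMIs (15.2 to 16.0), and in the steady-state bundle 16.7 (15.6 to 17.8). Progenitor DCs had 17.3 and 18.6, and MoMacDC_c2 13.6 and 15.1. MoMacDC_c5 had fewer, 4.73 (0.973 to 13.9) and 7.77 (3.35 to 15.4), on 3 and 8 Ciita UMIs. Steady-state clusters 5 and 6 had 50.2 (35.1 to 69.9) and 128 (59.2 to 249), with Ciita itself at 10.9 and 4.54 CPM. Over 28 clusters split by library, r with the classical chains was 0.940 for Ciita and 0.765 for H2-DMa, whereas over the 23 cell type groups both were 0.949.

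Cd74 was the most even partner in cells with high MHC II, at 0.661 and 0.684 Cd74 UMIs per classical chain UMI in Progenitor DCs and 0.728 and 0.668 in MoMacDC_c2. In monocytes with low MHC II it exceeded the classical chains. Steady-state clusters 4, 5 and 6 held 2.57, 2.02 and 3.42 Cd74 UMIs per classical chain UMI, and the same clusters after GM-CSF 1.19, 0.972 and 1.20. B cells held 1.13 (1.09 to 1.18) at steady state and 0.681 (0.643 to 0.721) after GM-CSF.

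Against the classical chains, H2-O was higher in B cells and Progenitor DCs than in MoMacDC_c1 and MoMacDC_c2 of either library. B cells of both libraries held 67.4 H2-O UMIs per 1000 classical chain UMIs (61.6 to 73.5), 76.6 at steady state and 51.3 after GM-CSF. Progenitor DCs held 33.7 and 25.4, and MoMacDC_c2 14.96 and 5.09. Without the cells that had a B cell gene UMI these were 34.4 and 25.03, and 14.8 and 5.04. With each cell thinned to 1000 UMIs, H2-O and the classical chains had similar treated over steady-state ratios in Progenitor DCs, as given below. In the treated library P-III held 2.69 (1.74 to 3.97) and P-IV 4.30 (3.65 to 5.04). Low values were not confined to that library, since MoMacDC_c1 held 5.16 and 3.46, and steady-state P-I 5.77 (2.76 to 10.6). The makeup of H2-O differed too. In B cells H2-Ob exceeded H2-Oa, at 284 against 159 CPM at steady state and 378 against 219 CPM after GM-CSF. Progenitor DCs had the opposite order, with H2-Oa at 401 and 269 CPM and H2-Ob at 160 and 92.6 CPM. There were 1.77 H2-Ob UMIs per H2-Oa UMI in B cells (1.48 to 2.13) and 0.365 in Progenitor DCs (0.328 to 0.406).

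The choice of H2-DMb gene also differed between B cells, Progenitor DCs and the MoMacDC classes. H2-DMb2 made up 78.2% (74.3 to 81.8%) of H2-DMb UMIs in B cells of both libraries, with H2-DMb2 at 338 CPM and H2-DMb1 at 94.0 CPM. In Progenitor DCs it made up 57.9% and 51.8%, in MoMacDC_c2 17.3% and 24.01%, and in MoMacDC_c1 4.92% (3.62 to 6.51%) and 9.16% (8.33 to 10.0%). Among the treated CD115hi subsets its share was 10.0% in P-I, 11.7% in P-III and 21.6% in P-IV. Activated DCs did not follow the division seen in H2-O. Over both libraries they held 61.4% H2-DMb2 (45.5 to 75.6%, of 44 UMIs) with 9.37 H2-O UMIs per 1000 classical chain UMIs (5.79 to 14.4). H2-DMb1 and H2-DMb2 are near-identical neighbours, and how reads shared by both were assigned was not given in the sources used here, so the split between them is uncertain. Progenitor DCs and MoMacDC_c2 of the treated library, with classical chains at 14246 and 17316 CPM in that order, differed at least 2-fold in 4 of the 10 genes. H2-Oa and H2-Ob were higher in Progenitor DCs (5.68-fold and 2.28-fold), and H2-DMa and H2-DMb1 lower (0.499 and 0.380), beside 9.06% of genes higher and 10.8% lower. Cells were assigned to both classes from RNA, so these differences are a description.

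**Figure D4:**
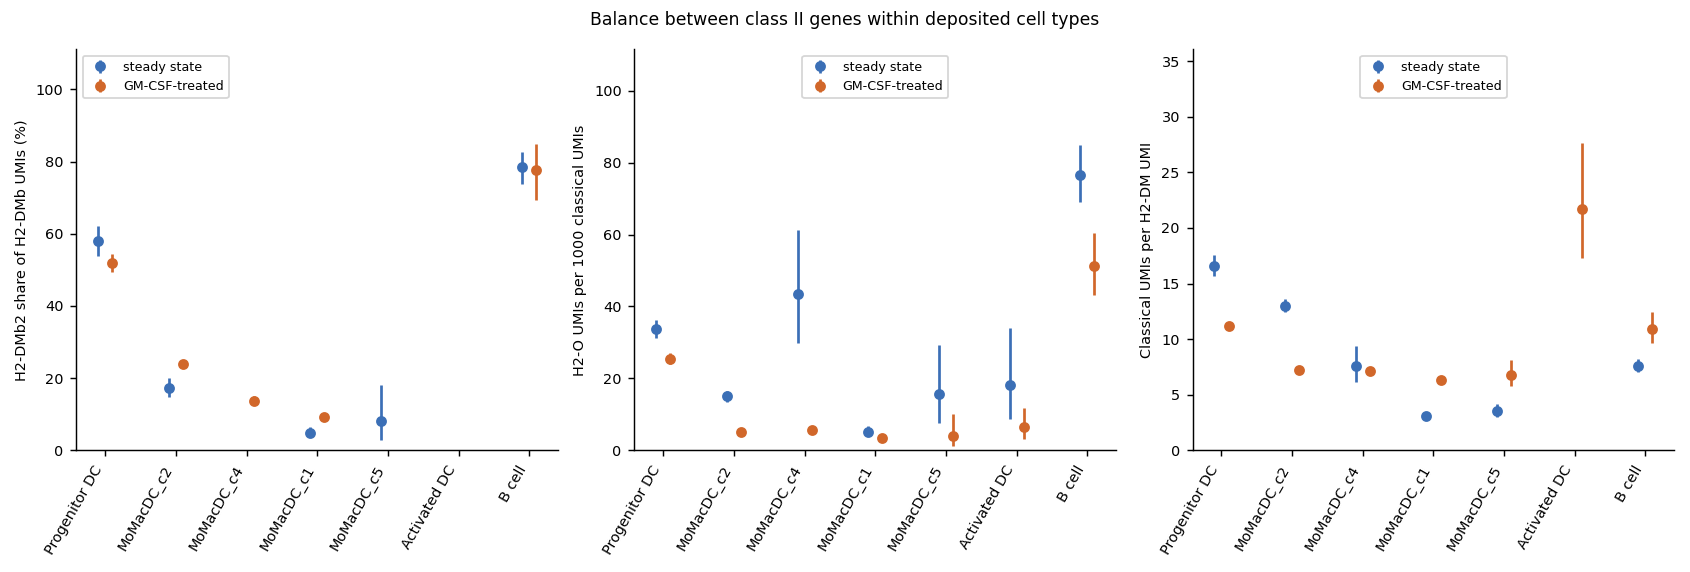
For each deposited cell type the 3 panels give the percent of H2-DMb UMIs that were H2-DMb2, the H2-O UMIs per 1000 classical chain UMIs and the classical chain UMIs per H2-DM UMI, blue for steady state and orange for GM-CSF-treated; bars are exact 95% intervals and groups with under 50 UMIs below the line of the ratio are left out. B cells sit at 78.4 and 77.7% H2-DMb2, against 4.92 and 9.16% in MoMacDC_c1.

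Over the bundle as a whole, the classical chains kept a nearly fixed H2-Ab1 to H2-Aa ratio. It was 1.06 at steady state and 1.04 after GM-CSF in the bundle. Activated DCs were lower, at 0.679 (0.545 to 0.845) and 0.620 (0.545 to 0.705). Among clusters this ratio ran from 0.801 (0.688 to 0.930) in treated cluster 4 to 1.46 (1.02 to 2.11) in steady-state cluster 10. In P-I cells it was 1.14 (1.02 to 1.27) and 0.937 (0.895 to 0.981). H2-Eb1 varied more against H2-Aa. There were 0.301 H2-Eb1 UMIs per H2-Aa UMI (0.236 to 0.381) in steady-state cluster 5 and 0.607 in MoMacDC_c1 as a whole. It was 0.906 and 1.04 in Progenitor DCs, and 0.736 and 1.13 in B cells. In the treated CD115hi subsets the H2-Eb1 ratio was 0.627 in P-I, 0.686 in P-III and 0.788 in P-IV.

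The MHC II tag, an antibody against the surface protein, was set beside H2-Aa RNA in the same cells. All tags together had a median of 250 and 342.5 counts per cell in the 2 libraries, and the tag was not scaled between them. Median tag counts were 1027.5 and 442 in Progenitor DCs, 425 and 390 in MoMacDC_c2, 444 and 407 in B cells, and 5 and 11 in neutrophils. MoMacDC_c1 had 9 and 167.5, and P-I cells 11 and 171. In the treated library P-III had 312 and P-IV 511. Activated DCs had the highest counts, 3738 and 5262.5, although their H2-Aa RNA (2551 and 5560 CPM) did not exceed that of MoMacDC_c2. B cells at steady state and MoMacDC_c2 cells had similar median tags, 444 and 425, with a median of 9 and 51 H2-Aa UMIs per cell, at median depths of 2976.5 and 8364 UMIs.

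Across the cells of the bundle, Spearman's rho of H2-Aa UMIs with the MHC II tag was 0.63 at steady state (2135 cells) and 0.60 after GM-CSF (3940 cells). These cells share a library and vary in depth: total UMIs had a rho of 0.10 and 0.21 with the tag, and 0.26 and 0.55 with H2-Aa. With each cell thinned to 1000 UMIs rho was 0.65 and 0.45. The other tags had rho with H2-Aa of 0.38 and 0.52 for CD11c, -0.14 and 0.42 for CD301b, -0.25 and -0.26 for Ly6C, and -0.04 and 0.06 for CD115. Among the members, rho with the MHC II tag was 0.66 and 0.61 for H2-Eb1, 0.60 and 0.56 for Cd74, 0.52 and 0.35 for Ciita, and 0.21 and 0.40 for H2-DMa. After thinning it was 0.63 and 0.47 for H2-Eb1 and 0.61 and 0.44 for Cd74. For Ciita it was then 0.25 and 0.14, and for H2-DMa 0.13 and 0.18. Within classes, rho of H2-Aa was 0.65 in treated MoMacDC_c1 and 0.22 in treated MoMacDC_c2, or 0.59 and 0.04 after thinning.

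Binned by tag, H2-Aa was at 30.9 CPM in steady-state bundle cells with under 10 tags, 161 CPM from 10, 1012 CPM from 30, 2681 CPM from 100, 5636 CPM from 300 and 5138 CPM at 1000 or more. The treated cells of the same bins held 108, 321, 2028, 4502, 5390 and 5870 CPM. From 300 tags on, H2-Aa lay between 5138 and 5870 CPM in both libraries. H2-DM differed between the libraries in bins of the same unscaled tag count. In the bin from 100 tags it was 647 CPM at steady state and 1830 CPM after GM-CSF, and in the bin from 300 tags 1090 and 2005 CPM. The cell types behind these bins differed. Of bundle cells with at least 100 tags, 149 of 434 at steady state and 382 of 3174 after GM-CSF were Progenitor DCs. The part of this makeup was not tested.

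**Figure D5:**
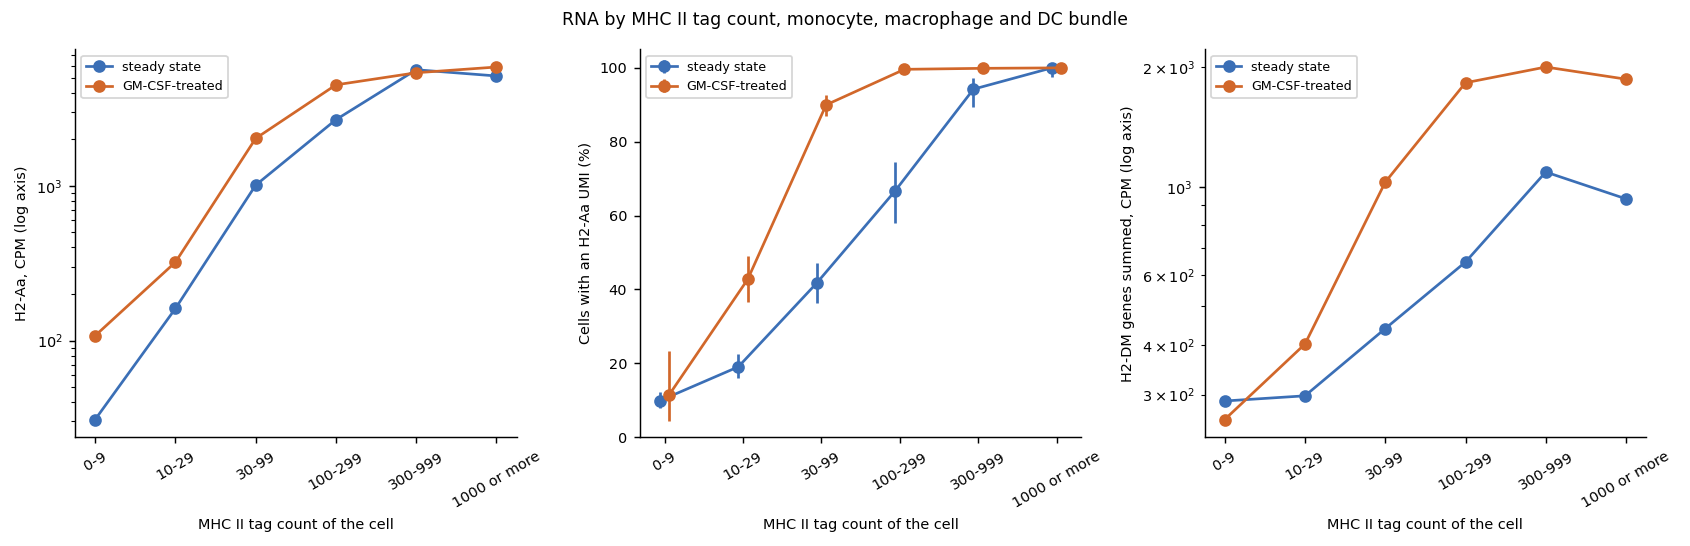
Bundle cells grouped by their MHC II tag count (x axis), with H2-Aa in CPM (log axis), the percent of cells with an H2-Aa UMI (bars are exact 95% intervals) and the summed H2-DM genes in CPM (log axis), blue for steady state and orange for GM-CSF-treated. In the bin from 300 tags H2-Aa stands at 5636 and 5390 CPM, while H2-DM stands at 1090 and 2005 CPM.

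Some cells held the protein tag without RNA. Of 434 steady-state bundle cells with at least 100 tags, 54 (12.4%) had no H2-Aa UMI, and of 3174 treated cells 7 (0.221%). Of those 54 cells, 37 were MoMacDC_c5, in which 68.5% of the 54 cells past 100 tags had no H2-Aa UMI at a median depth of 3763.5 UMIs per cell. Among steady-state granulocytes 46 cells passed 100 tags and 37 of them had no UMI. The converse was rare: 7 of 482 steady-state bundle cells with at least 5 H2-Aa UMIs had under 10 tags, and 0 of 3454 treated cells, which allows a share of up to 0.0869%.

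The rest of the pathway was read from a list of 34 genes of the table. In P-I cells, none of the 10 regulators was called 2-fold apart in either direction, 8 of them with 50 UMIs. Rfxap, a subunit of the X box factor RFX, was 43.0 and 30.1 CPM, Nfya, a subunit of NF-Y, 57.7 and 30.1 CPM, and Spi1 (PU.1), a myeloid factor, 642 and 531 CPM. Of the 7 processing enzymes, Ctsb, a lysosomal protease, was at least 2-fold lower (972 and 418 CPM). Ifi30, a thiol reductase that unfolds antigens in endosomes, was 764 and 1372 CPM, a ratio of 1.80. Of 14 genes of the MHC class I path, 13 had 50 UMIs, none was 2-fold higher and 2 were lower: B2m, the light chain of class I, at 2976 and 1344 CPM, and H2-D1, a heavy chain, at 2437 and 1096 CPM. Over all genes tested in P-I, 4.99% were higher and 7.12% lower. H2-K1, another heavy chain, was under 2-fold apart in P-I. March1, a ubiquitin ligase that takes MHC II off the surface, was 167 and 100 CPM.

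In MoMacDC_c1 Ifi30 was at least 2-fold higher (691 and 1426 CPM), and 3 of the 14 class I genes were lower: B2m, H2-D1 and Nlrc5, the class I transactivator (41.4 and 20.4 CPM). Of the 10 regulators none was 2-fold apart there, and of the 7 processing enzymes Ctsb was lower (963 and 375 CPM), beside 5.48% of all genes higher and 7.26% lower. Over all cells, 0 regulators were higher and 1 lower (Irf8), 1 enzyme was higher (Ifi30, 465 and 1118 CPM) and 1 lower (Ctsb), and 0 class I genes were higher and 4 lower, beside 7.74% of all genes higher and 10.1% lower. H2-Eb2, a class II β chain outside the list, was lower over all cells (8.77 and 3.63 CPM) and in Progenitor DCs (84.2 and 25.8 CPM). It was highest in Activated DCs at 207 and 179 CPM, and B cells held 42.2 and 43.8 CPM. In the treated library MoMacDC_c2 held 6 H2-Eb2 UMIs (0.644 CPM) and Progenitor DCs 77, a ratio of 40.1 (17.6 to 113).

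The 10 genes outside the list whose log2(CPM + 10) was most like the summed classical chains over the 23 groups, among 9751 genes, were led by Ifi30 (r 0.949) and Plekho1 (0.925). Prcp (0.876), Ift22 (0.875), Ly86 (0.863), Fgd2 (0.860), Erp29 (0.859), Zmiz2 (0.856), Gdi2 (0.850) and Shtn1 (0.847) followed. Ifi30 thus lay as close to the classical chains as Ciita and H2-DMa, and closer than either H2-DMb gene or either H2-O gene.

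H2-DMa overlaps exons of Brd2 on the opposite strand, as do Ciita those of Dexi and H2-Oa those of BC051537, and Cd74 holds a microRNA gene on its own strand. How the counting treated such reads was not given in the sources used here, which limits the level of these genes. Fewer than 50 UMIs stood behind H2-Oa and H2-Ob in P-I cells, and with all P-I cells the intervals of both ratios held 1. Without the cells that had a B cell gene UMI, H2-Oa in P-I stood on 1 steady-state and 20 treated UMIs, a ratio of 13.4 (2.14 to 555), and the interval of H2-Ob held 1.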

How the data were processed

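CD11b+ splenocytes of mice without and with GM-CSF injections were profiled by CITE-seq (10x 3′ v3), with 1 library per condition, and grouped by the condition in the labels. The authors aligned reads with Cell Ranger 3.0.2 to mm10 (submitters' processing notes) and deposited counts of RNA UMIs per gene and counts of antibody tags per cell, with cells outside 200 to 5000 genes or past 15% mitochondrial UMIs removed. The mitochondrial percent of each cell, the cell types, the clusters and the cell cycle phases were deposited by the authors with the cells. The annotation release and the handling of overlapping genes were not given in the sources used here. The separate matrices of the monocyte-DC bundle held the same values as its columns in the full matrices and were not used. Columns not tied to a sample numbered 0.

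UMIs were summed per cell group and library, and divided by the group's UMIs to give CPM. Intervals at 95% were exact Poisson for levels and exact binomial (Clopper-Pearson) for shares and ratios. They cover counting error only. With 1 library per condition no test was made. Ratios of at least 2-fold were counted with 0.5 counts added to each sum among genes with at least 50 UMIs over both groups. For comparisons across depths each cell was thinned to 1000 UMIs, which left out 616 cells. A count of 0 was read against 3 counts. CD115hi subsets were the labels deposited by the authors, who drew them from the tags. The numbers of cells under these labels differ from those the study gives for the same subsets, and the reason was not given in the sources used here. Scrublet (in scanpy 1.11.5), run per library, marked 141 steady-state (2.92%) and 186 treated cells (2.73%), which were kept. The list behind the B cell gene UMIs held 1 further gene that is not reported here. The scripts were tested on simulated counts. Genes named were all members, the fixed pathway lists past 2-fold or named for their role, and the 10 genes most like the classical chains. Members and lists were chosen with earlier results of these data known. Alternatives were doublets left out, thinning, other scalings, other tag scales, fewer genes per sum and, chosen after seeing the data, G1 cells alone and cells with a B cell gene UMI left out of cell types. Python 3.11.15, numpy 2.4.6, scipy 1.17.1, pandas 2.3.3, anndata 0.12.19 and matplotlib 3.10.9 were used.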

Additional observations from a re-analysis of the deposited data

Results flagged for a closer look

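Several ratios of the GM-CSF-treated over the steady-state library lay below 1 in some cell types and above 1 in others, with intervals that did not hold 1. The difference between cell types was not tested, since each condition was 1 library. The shares of finer clusters within Progenitor DCs and within MoMacDC_c1 also differed between the libraries, and the part of this was not tested.

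In Progenitor DCs the ratio was 0.822 for H2-Aa, 0.814 for H2-Ab1, 0.940 for H2-Eb1 and 0.855 for the summed classical chains. MoMacDC_c5, which carried genes of non-classical monocytes, had ratios above 1 for the same chains, 8.69 for H2-Aa, 8.25 for H2-Ab1, 10.6 for H2-Eb1 and 8.93 for their sum. MoMacDC_c1 stood close to it at 8.32 for the sum. Without cells that had a B cell gene UMI the sums were 8.70 in MoMacDC_c5 and 9.47 in MoMacDC_c1. For Cd74, the invariant chain, the ratio was 0.885 in Progenitor DCs and 5.95 in MoMacDC_c1.

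H2-O, the partner that restrains H2-DM, had ratios below 1 in Progenitor DCs and MoMacDC_c2. This did not hold for B cells, where both H2-O genes stood higher in the treated library. H2-Oa was at 0.671 of its steady-state level in Progenitor DCs and 0.305 in MoMacDC_c2, and H2-Ob at 0.578 and 0.508. The sum of both was at 0.645 and 0.374. In MoMacDC_c4 the ratio of H2-Ob was 0.346, where the 43 steady-state cells carried NK cell genes and 8 of them B cell genes. In MoMacDC_c1 the ratios were above 1, at 7.28 for H2-Oa, 3.98 for H2-Ob and 5.57 for both.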

How the results depend on the processing

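No paired analysis was possible because each condition was 1 library. Leaving out cells with a B cell gene UMI from cell types, chosen after seeing the data, turned the direction of H2-Ob in MoMacDC_c4 from 0.346 to 1.61 (3 steady-state UMIs). The ratio of the classical chains over all cells (3.46) was 3.37 without called doublets, 4.49 with cells thinned to 1000 UMIs, 3.68 with libraries scaled by the median ratio over genes, 4.11 from means per cell and 4.29 without cells that had a B cell gene UMI. In P-I cells (4.48) it was 4.81, 4.799, 4.75 and 7.59 under the last 4 of these. The P-III over P-I ratio (1.77) was 1.84 without doublets and 1.61 in G1 cells, and the P-IV over P-III ratio (1.27) 1.33 in G1 cells, a choice made after seeing the data. Spearman's correlation of H2-Aa with the MHC II tag (0.63 at steady state) was 0.65 with thinning, 0.57 with the share of the tag among all tags, 0.61 with a centred log ratio, 0.64 without doublets and 0.79 as Pearson's r of log2(x + 1). After GM-CSF (0.60) it was 0.45 with thinning, 0.54 with UMIs per 10000, 0.37 with the tag share, 0.42 with the centred log ratio and 0.73 as Pearson's r. Classical chain UMIs per H2-DM UMI in the treated bundle (7.30) were 7.39 with thinning, 5.27 from H2-Aa and H2-Ab1 and 11.7 against H2-DMa, and in B cells (8.56) 5.91 and 17.9 under the latter pair. With H2-Aa and H2-Ab1 as the classical chains, H2-O per 1000 was 10.1 in the treated bundle (7.29) and 97.6 in B cells (67.4, or 74.4 with thinning), and Ciita per 1000 was 21.6 in the treated bundle (15.6). In Progenitor DCs thinning gave 0.791 for the classical chains (0.855) and 0.821 for H2-O (0.645). The cause of these shifts was not tested, other than that a sum of fewer genes is smaller. The H2-O genes in P-I cells are limited by few counts (37 UMIs in all), and subsets of 7 to 12 cells by few cells.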

Other observations

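Cells of the monocyte-DC bundle in the deposited G1 phase held more classical chain RNA than cells in S or G2M. At steady state the classical chains stood at 4090 CPM in G1 cells (1622 cells), 3225 CPM in S and 3149 CPM in G2M. In the treated library they stood at 13847, 11124 and 10719 CPM. The phases were deposited calls from RNA, and the cell types were not matched between phases.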
